A study of Mus musculus with 28 samples.

Results

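The passage from morula to blastocyst in mouse embryos labelled as lacking Ctcf was described from 9 single whole embryos, 3 MZ_KO blastocysts and 6 MZKO morulae, out of 27 embryos measured in the series. They were chosen by their labels alone, and the 14332 gene rows present in both the blastocyst and the morula table were used. Embryos labelled het, 4 blastocysts and 3 morulae, went through the same passage and served as the comparison. All 16 embryos were of the CD1 strain, and the deposited tables are named for embryonic day 3.5 (blastocysts) and 2.5 (morulae). The labels do not explain the genotype codes. MZ is the usual shorthand for an embryo without the gene product from the egg or from its own genome, and het for an embryo with 1 working copy. The Cre driver, the floxed allele and the number of mothers are not given in the sources used here. Each of the 4 groups carries its own prefix in the sample titles, so the genotype cannot be told apart from whatever the prefix marks. Nothing says which embryos shared a mother, so p-values measure only the spread between these embryos.

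At the morula stage the outer cells of the mouse embryo polarise, seal their junctions and start to pump fluid, and a cavity forms. The outer cells become trophectoderm, which is driven by CDX2, GATA3 and EOMES and later forms the placenta, and the inner cells divide into epiblast, marked by NANOG, and primitive endoderm, marked by GATA6 and then GATA4 and SOX17. Over the same period the embryo moves from pyruvate as its main fuel toward glucose and raises its oxygen use. CTCF binds DNA through its zinc fingers and marks where cohesin stops extruding a chromatin loop, and the series set out to ask what this step needs from it.

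Blastocysts and morulae were sequenced in different batches and scaled in separate tables, so stage and batch cannot be told apart. The stage change of a gene was therefore only described, as the difference between group means of log2(CPM + 1), where CPM is the share of an embryo's scaled library in counts per 1000000. A gene was counted as moved where this difference was at least 4-fold and no blastocyst overlapped any morula. What was tested, with limma, was whether the change in MZ embryos differed from the change in het embryos. That difference equals MZ minus het within the blastocyst table less MZ minus het within the morula table, so a constant offset of a gene between the tables drops out. Of the 14332 genes, 10556 reached 10 CPM in at least 3 of the 16 embryos and were tested. The added 1 makes differences of low genes smaller than their fold change in CPM. Serpinb, Obox, ribosomal protein, tubulin and haemoglobin genes have near-identical relatives or copies, and mitochondrial transcripts have nuclear copies, so their values are uncertain where reads were shared. The library kit does not mark strand. Of the tested genes, 1193 reached that level in fewer than 3 of the 9 MZ embryos. In whole embryos, fewer cells of a type and less RNA per cell cannot be told apart.

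Read totals ran from 21649241 to 27343104 in MZ_KO blastocysts, from 12136606 to 20414013 in MZKO morulae, from 14039645 to 27883060 in het blastocysts and from 14067868 to 19230067 in het morulae. Ctcf averaged 3.62 CPM in MZ_KO blastocysts, where the 3 embryos had 2.92, 4.23 and 3.72 CPM, and 67.5 CPM in het blastocysts, where the 4 had 78.9, 55.1, 67.7 and 68.5 CPM. MZKO morulae had a lowest value of 0 CPM, a median of 4.26 and a highest of 8.68 CPM for Ctcf, and het morulae had 26.1, 35.1 and 54.6 CPM. No MZ embryo reached the lowest het embryo of its stage (exact two-sided permutation tests, p = 0.0571 in blastocysts with n = 3 and 4 and p = 0.0238 in morulae with n = 6 and 3, both the smallest these group sizes allow). The change of Ctcf itself from morula to blastocyst was 0.18 in MZ and 0.84 in het embryos on the log2 scale.

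MZKO morula 1 and het morula 1 stood apart from their groups. They resembled each other (Spearman's rho across genes 0.881) more than MZKO morula 1 resembled any other MZKO morula (0.718 to 0.745) or het morula 1 the other het morulae (0.718 and 0.77), while the other MZKO morulae had values of 0.815 to 0.92 among themselves. Both also held the most transcripts of cells that surround an embryo in the mother. The 7 oviduct markers summed to 2282 CPM in MZKO morula 1 and to 122 to 359.7 CPM in the other MZKO morulae, and to 1452 CPM in het morula 1 against 209.6 and 2.00 CPM in the other het morulae. In MZ_KO blastocysts they summed to at most 47.95 CPM, and in het blastocyst 6 to 571 CPM against 3.45 to 119 CPM in the other het blastocysts. The 6 granulosa and cumulus markers summed to 829.6 CPM in MZKO morula 1 and 3180 CPM in het morula 1, and to at most 271 CPM elsewhere. The 11 blood markers summed to 1643 to 7699 CPM in MZ_KO blastocysts, 54.1 to 4370 CPM in MZKO morulae, 52.6 to 32360 CPM in het blastocysts and 466 to 16450 CPM in het morulae. The part these transcripts play in the results below was not tested. Calls without the 2 morulae are given beside those with all embryos for the lists described.

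**Figure D1:**
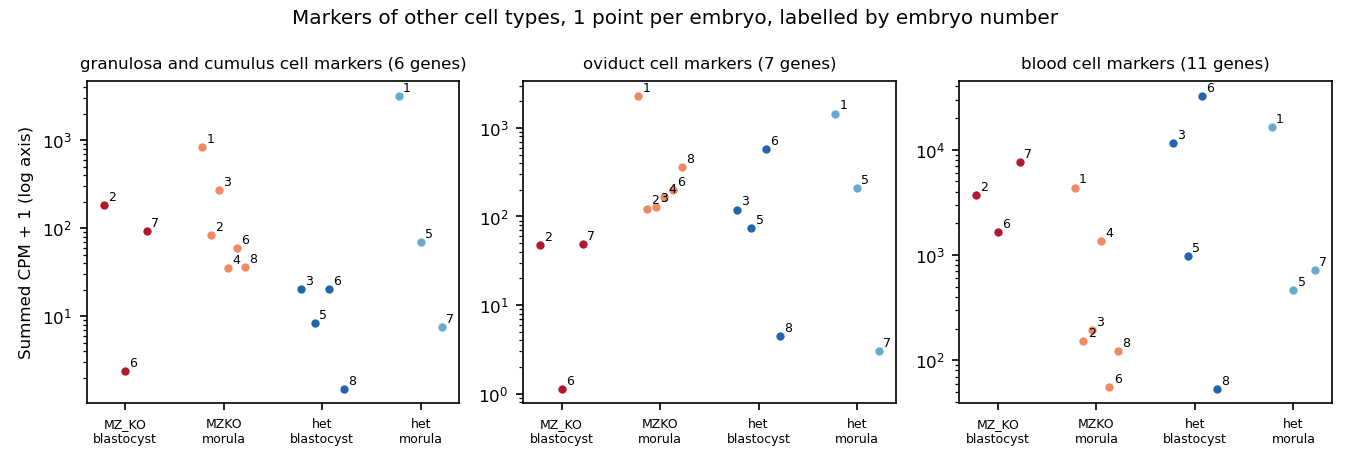
Summed CPM + 1 (log axis) of the granulosa and cumulus, oviduct and blood markers in each embryo, labelled by embryo number, for MZ_KO blastocysts, MZKO morulae, het blastocysts and het morulae. The 2 embryos numbered 1 among the morulae hold the highest oviduct and granulosa sums, 2282 and 1452 CPM for oviduct markers.

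Between MZKO morulae and MZ_KO blastocysts 706 genes rose at least 4-fold without overlap, 6.69% of those tested, and 578 fell, 5.48%. In het embryos 709 rose, 6.72%, and 337 fell, 3.19%. Without MZKO morula 1 and het morula 1 the counts were 870 up (8.24%) and 598 down (5.67%) in MZ embryos and 1092 up (10.3%) and 423 down (4.01%) in het embryos. The groups differ in size (3 and 6 embryos against 4 and 3), which sets how easily a gene escapes overlap. Of the rising genes, 336 were shared, 47.6% of the MZ list and 47.4% of the het list. Of the falling genes, 161 were shared, 27.9% of the MZ list and 47.8% of the het list. By the same rule 2 genes that rose in MZ embryos fell in het embryos, and 1 did the reverse. Pearson's r between both changes was 0.666 across the 10556 genes and 0.587 without the 2 morulae, as a description, since genes are not replicates and each table carries its own batch.

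Genes chosen by their change in 1 genotype had a smaller median change in the other, in both directions of choice. The 706 genes that rose in MZ embryos had a median log2 change of 2.75 in MZ and 2.00 in het embryos. Of the 706 genes 105 (14.9%) changed less than 2-fold in het embryos. The 709 genes that rose in het embryos had a median change of 2.16 in MZ embryos and 2.69 in het embryos on the log2 scale, and 102 of them (14.4%) changed less than 2-fold in MZ embryos. Of the same 709 genes, each MZ_KO blastocyst exceeded every het morula for 83.4% to 88.2%, and reached the lowest het blastocyst for 43.7% (embryo 2), 48.5% (embryo 6) and 55.0% (embryo 7). Het blastocysts meet both marks by the way the genes were chosen, so a lower share in MZ embryos is partly set in advance. The 578 genes that fell in MZ embryos had a median change of -2.84 there and -1.46 in het embryos, and 188 of them (32.5%) changed less than 2-fold in het embryos. The 337 genes that fell in het embryos had medians of -2.16 in MZ and -2.58 in het embryos. Of these genes, each MZ_KO blastocyst lay below every het morula for 85.2% to 88.4%. It lay within or below the het blastocyst range for 55.8% (embryo 2), 54.6% (embryo 6) and 61.1% (embryo 7), with the same limit.

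**Figure D2:**
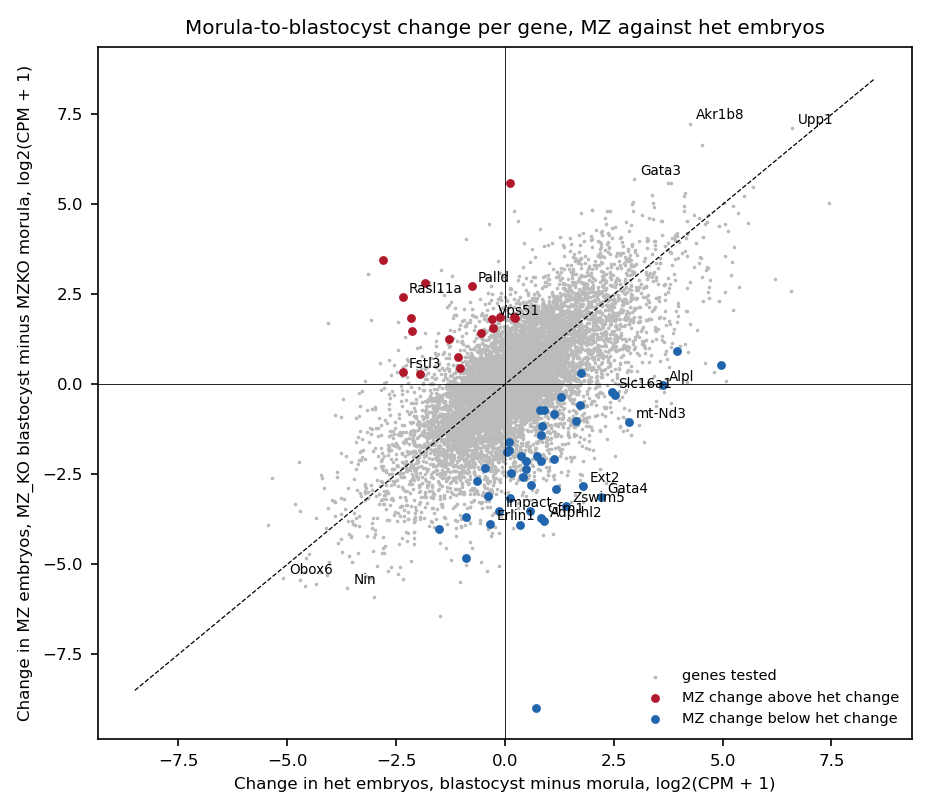
Change from morula to blastocyst in MZ embryos (y axis) against het embryos (x axis), both as differences of group means of log2(CPM + 1), 1 point for each of the 10556 genes tested, with the line of equal change dashed. Coloured points are the 63 genes with an adjusted p under 0.05 for the difference, 18 above the line and 45 below it.

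Of the 12 named genes with the largest rise in MZ embryos, 1, Gata3, is on the trophectoderm list. Akr1b8, an aldo-keto reductase, had 552, 592 and 872 CPM in MZ_KO blastocysts and a lowest, median and highest value of 0.0788, 5.59 and 7.49 CPM in MZKO morulae. Het embryos had 792 to 1146 CPM as blastocysts and 34.0 to 77.5 CPM as morulae for Akr1b8. Every blastocyst of either genotype lay above every morula, and every MZKO morula lay below every het morula. Its log2 change was 7.24 in MZ and 4.25 in het embryos, a difference of 2.99 ± 0.77 (SE) that did not pass the test (limma, adjusted p = 0.0841) and passed without the 2 morulae (adjusted p = 0.0243).

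Gata3, a transcription factor of the trophectoderm, had 228, 245 and 383 CPM in MZ_KO blastocysts and 0.0788, 6.82 and 11.4 CPM as the lowest, median and highest value in MZKO morulae. In het embryos Gata3 had 294 to 511 CPM in blastocysts and 30.5, 30.7 and 121 CPM in morulae. MZ_KO and het blastocysts overlapped, whereas MZKO and het morulae did not. In rank, Gata3 stood on average at percentile 94.8 of all genes in MZ_KO blastocysts and 32.4 in MZKO morulae, and at 96.8 in het blastocysts and 71.1 in het morulae. The change was 5.71 in MZ and 2.95 in het embryos on the log2 scale (difference 2.76 ± 0.94 SE, adjusted p = 0.194).

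Epcam, an adhesion molecule of epithelial cells, had 1209, 1190 and 1498 CPM in MZ_KO blastocysts and 15.4 to 57.8 CPM in MZKO morulae, against 1428 to 1830 CPM in het blastocysts and 42.5, 127 and 252 CPM in het morulae. MZKO and het morulae overlapped only through MZKO morula 1 (57.8 CPM) and het morula 1 (42.5 CPM). The Epcam change was 5.60 in MZ and 3.81 in het embryos (difference 1.79 ± 0.62 SE, adjusted p = 0.204, and 0.00192 without the 2 morulae). Upp1, the uridine phosphorylase that breaks uridine into uracil, had 220, 224 and 242 CPM in MZ_KO blastocysts and at most 3.71 CPM in MZKO morulae, against 258 to 352 CPM in het blastocysts and at most 5.82 CPM in het morulae. Of the other large rises, Tdg, the thymine DNA glycosylase, rose by 5.498 in MZ and 5.69 in het embryos on the log2 scale, and Glrx, a glutaredoxin, by 5.23 and 5.48. Fabp3, a fatty acid binding protein, rose by 5.23 in MZ and 4.11 in het embryos. Serpinb9b and Serpinb6c, protease inhibitors of the serpin family, Slc6a13, a transporter of GABA, Rnf130, a ubiquitin ligase, and Bmyc, of the Myc family, rose by 5.06 (Bmyc) to 6.64 (Serpinb9b) in MZ embryos and by 2.94 (Bmyc) to 4.52 (Serpinb9b) in het embryos. No gene among these 12 largest rises passed the test of the difference with all embryos (adjusted p from 0.0841 for Akr1b8 to 0.961 for Tdg).

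The largest falls fell into a pair of kinds. In the first, the MZKO morulae were alike. Obox6, a homeobox gene of the oocyte and early embryo, had 18.7, 42.8 and 13.1 CPM in MZ_KO blastocysts and 535, 960 and 1328 CPM as the lowest, median and highest value in MZKO morulae, a change of -5.37, beside -5.11 in het embryos. Nin, which codes for the centrosome protein ninein, had 2.54 to 7.96 CPM in MZ_KO blastocysts and 184 to 592 CPM in MZKO morulae, against 4.11 to 23.01 CPM in het blastocysts and 127, 189 and 135 CPM in het morulae. Slc16a6, of the monocarboxylate transporter family, changed by -5.90 in MZ and -2.99 in het embryos, Dhtkd1, a mitochondrial dehydrogenase of lysine breakdown, by -5.33 and -3.19, Zc3h12c, of the Regnase family, by -5.17 and -2.68, and Grin1, an NMDA receptor subunit, by -5.21 and -4.22.

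In the second kind of fall, MZKO morula 1 was the highest. Ltf (lactoferrin) had 0.221 to 1.5 CPM in MZ_KO blastocysts, 2081 CPM in MZKO morula 1 and 66.2 to 112 CPM in the other MZKO morulae, against 4.82 to 102 CPM in het blastocysts and 805, 124 and 1.17 CPM in het morulae. Anxa1 (annexin), Hdc (histidine decarboxylase), C3 (complement) and Slc25a48 (a mitochondrial carrier) had their highest MZKO value in the same morula, at 409, 541, 838 and 263 CPM. Pfkfb3, which makes the activator of phosphofructokinase in glycolysis, had 118 CPM there and 33.3 to 88.2 CPM in the other MZKO morulae. Of 7 tested oviduct markers 4 fell at least 4-fold without overlap in MZ embryos and 0 in het embryos, against 5.48% and 3.19% of all genes. Without the 2 morulae 3 fell in MZ and 0 in het embryos, against 5.67% and 4.01%. None was called for a different change with or without the 2 morulae. One of the 4 was Ovgp1, the oviduct glycoprotein, with 25.99, 0.0459 and 41.1 CPM in MZ_KO blastocysts and 83.5 to 1725 CPM in MZKO morulae.

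**Figure D3:**
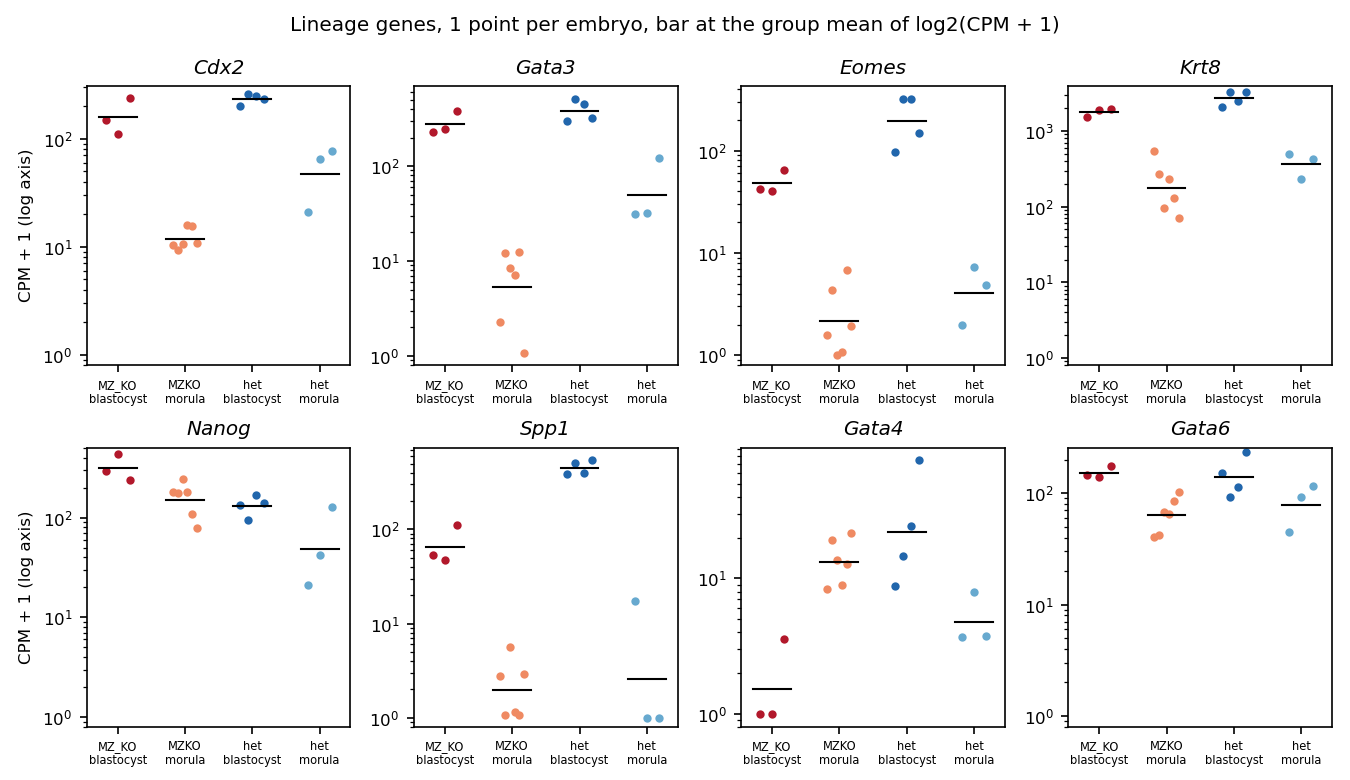
CPM + 1 (log axis) of 8 lineage genes, 1 point for each embryo and a bar at the group mean of log2(CPM + 1), for MZ_KO blastocysts, MZKO morulae, het blastocysts and het morulae. Cdx2 and Gata3 are lower in every MZKO morula than in any het morula, and Spp1 and Eomes are lower in every MZ_KO blastocyst than in any het blastocyst.

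Many trophectoderm markers rose in both genotypes. Of 18 tested, 9 rose and 3 fell at least 4-fold without overlap in MZ embryos, and 9 rose and 1 fell in het embryos, with median log2 changes of 2.47 in MZ and 1.93 in het embryos against 0.10 and 0.15 over all genes tested. Over all genes tested 6.69% rose and 5.48% fell in MZ embryos and 6.72% and 3.19% in het embryos. Without the 2 morulae 11 markers rose and 3 fell in MZ embryos and 8 rose and 1 fell in het embryos. All genes then had 8.24% and 5.67% in MZ and 10.3% and 4.01% in het embryos. None was called for a different change with all embryos, and without the 2 morulae 3 of 18 were called higher and 2 lower, against 3.04% and 2.55% of all genes. Cdx2, the factor that fixes trophectoderm identity, had 149, 109 and 235 CPM in MZ_KO blastocysts and 8.30, 9.74 and 14.9 CPM as the lowest, median and highest value in MZKO morulae. In het embryos Cdx2 had 198 to 259 CPM in blastocysts and 20.1, 63.8 and 76.0 CPM in morulae. Its change was 3.73 in MZ and 2.31 in het embryos, and the difference of 1.42 ± 0.53 (SE) passed only without het morula 1 (adjusted p = 0.232 with all embryos, 0.0207 without it, and 0.0147 without both apart morulae).

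Eomes, a T-box factor of the trophectoderm, had 41.6, 39.2 and 63.3 CPM in MZ_KO blastocysts and at most 5.87 CPM in MZKO morulae, against 96.5 to 319 CPM in het blastocysts and at most 6.21 CPM in het morulae. All MZ_KO blastocysts lay above all morulae and below all het blastocysts, and the changes were 4.48 in MZ and 5.58 in het embryos (adjusted p = 0.624). The keratins of simple epithelia rose in both genotypes, Krt8 by 3.34 in MZ and 2.90 in het embryos and Krt18 by 3.48 and 2.79. Krt8 reached 1536 to 1957 CPM in MZ_KO blastocysts and 2049 to 3252 CPM in het blastocysts. Krt19 went the other way, with 1.83 to 11.8 CPM in MZ_KO blastocysts and 25.03 to 339 CPM in MZKO morulae, the highest again in MZKO morula 1.

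Epiblast and inner cell mass markers showed fewer large changes than trophectoderm markers. Of 20 tested, 3 rose and 0 fell at least 4-fold without overlap in MZ embryos, while 3 rose and 1 fell in het embryos. Of all genes tested 6.69% rose and 5.48% fell in MZ embryos and 6.72% and 3.19% in het embryos. The median changes of the list were 0.41 in MZ and 0.01 in het embryos. In the set without the 2 morulae 3 rose and 1 fell in MZ embryos and 3 rose and 3 fell in het embryos. All genes then had 8.24% and 5.67% in MZ and 10.3% and 4.01% in het embryos. In the same set 1 of the 20 was called higher and 2 lower, against 3.04% and 2.55% of all genes. Nanog had 292, 432 and 239 CPM in MZ_KO blastocysts and 76.9 to 242 CPM in MZKO morulae, against 93.4 to 167 CPM in het blastocysts and 20, 41.2 and 126 CPM in het morulae. MZ_KO blastocysts exceeded every het blastocyst for Nanog, and the changes were 1.05 in MZ and 1.45 in het embryos (adjusted p = 0.809). Pou5f1, which codes for OCT4, had 394 to 440 CPM in MZ_KO blastocysts and 346 to 734 CPM in MZKO morulae, against 238 to 356 CPM in het blastocysts and 493 to 1020 CPM in het morulae. Gdf3, a TGF-beta ligand of pluripotent cells, rose by 3.61 in MZ and 1.60 in het embryos, and Utf1, a chromatin protein of the same cells, by 2.37 and 1.135.

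Spp1 (osteopontin), a secreted phosphoprotein, had 51.9, 45.7 and 111 CPM in MZ_KO blastocysts and 0.0675 to 4.69 CPM in MZKO morulae, against 390 to 539 CPM in het blastocysts and 16.5, 0 and 0 CPM in het morulae. Every MZ_KO blastocyst lay below every het blastocyst. The difference in Spp1 change, -2.40 ± 1.12 (SE), did not pass (adjusted p = 0.336) but did without the 2 morulae (-3.68, adjusted p = 0.0185). Sox2, a factor of the inner cells, stayed out of the test for low values, with 5.37 to 13.2 CPM in MZ_KO blastocysts and at most 3.71 CPM in MZKO morulae, against 6.72 to 8.52 CPM in het blastocysts and at most 1.23 CPM in het morulae.

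Primitive endoderm markers showed the widest gap of the lineage lists. Their median change was 0.47 in MZ and 1.81 in het embryos over 12 tested genes. In MZ embryos 0 rose and 1 fell at least 4-fold without overlap, and in het embryos 3 rose and 0 fell. The shares over all genes were 6.69% and 5.48% in MZ and 6.72% and 3.19% in het embryos. Without the 2 morulae the MZ counts were 0 and 1 and the het counts 7 and 0. The shares over all genes were then 8.24% and 5.67% in MZ and 10.3% and 4.01% in het embryos. Of the 12 genes 0 were then called higher and 1 lower, against 3.04% and 2.55% of all genes. Gata4 was the one that fell and the one called for a different change, where 0.426% of all genes were called lower. It had 0, 0 and 2.54 CPM in MZ_KO blastocysts and 7.41, 12.2 and 20.5 CPM as the lowest, median and highest value in MZKO morulae, against 7.85, 13.7, 23.4 and 73.9 CPM in het blastocysts and 2.71, 6.88 and 2.73 CPM in het morulae. MZ_KO blastocysts were below every embryo of the other groups, and MZKO morulae were above every het morula. The change was -3.12 in MZ and 2.21 in het embryos, a difference of -5.33 ± 0.98 (SE, adjusted p = 0.0161, and 0.0102 without the 2 morulae). The call was lost without het morula 7 (adjusted p = 0.0507) or MZ_KO blastocyst 2 (0.0514).

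Gata6, which marks the primitive endoderm before Gata4, was not called, with 139 to 175 CPM in MZ_KO blastocysts and 39.3 to 101 CPM in MZKO morulae, against 90.8 to 235 CPM in het blastocysts and 44.1 to 116 CPM in het morulae (difference in change 0.46 ± 0.52 SE, adjusted p = 0.725). Sox17, a later factor, had 6.15 to 9.14 CPM in MZ_KO blastocysts and 1.39 to 30.4 CPM in MZKO morulae, against 15.8 to 127 CPM in het blastocysts and 0.334 to 37.7 CPM in het morulae (adjusted p = 0.628). In both blastocyst groups, Sox17 values did not overlap.

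Genes of the cavity, cell polarity and junctions had a median change of 1.00 in MZ and 0.88 in het embryos over 36 tested genes. In MZ embryos 4 rose and 1 fell at least 4-fold without overlap, and in het embryos 8 rose and 0 fell, and none was called for a different change. Among all genes tested 6.69% rose and 5.48% fell in MZ embryos and 6.72% and 3.19% in het embryos. With the 2 morulae left out 6 rose and 1 fell in MZ embryos and 8 rose and 0 fell in het embryos. All genes then had 8.24% and 5.67% in MZ and 10.3% and 4.01% in het embryos. Of the 36 genes 2 were then called higher and 2 lower, against 3.04% and 2.55% of all genes. Atp1b1, the sodium pump subunit that drives fluid into the cavity, had 68.0, 43.9 and 73.3 CPM in MZ_KO blastocysts and 2.13 to 60.4 CPM in MZKO morulae, against 115 to 136 CPM in het blastocysts and 6.57 to 91.7 CPM in het morulae. Dsg2, a desmosome cadherin, rose by 3.53 in MZ and 4.49 in het embryos, and Msn (moesin), which ties the membrane to actin, by 3.19 and 4.61. Aqp3, a water and glycerol channel, had 742, 1029 and 601 CPM in MZ_KO blastocysts and 211 to 527 CPM in MZKO morulae, against 190 to 343 CPM in het blastocysts and 346 to 446 CPM in het morulae. All MZ_KO blastocysts exceeded all other embryos for Aqp3, and the difference in change was 1.58 ± 0.40 (SE, adjusted p = 0.0801). It passed without MZKO morula 1 (adjusted p = 0.0426), without het morula 1 (0.0434) and without both (0.0221). Cdh1, which codes for E-cadherin, had 205 to 451 CPM in MZ_KO blastocysts and 254 to 560 CPM in MZKO morulae, against 502 to 688 CPM in het blastocysts and 274 to 344 CPM in het morulae (difference in change -1.16 ± 0.37 SE, adjusted p = 0.172).

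Among 10556 genes, limma called 63 for a different change at an adjusted p under 0.05, of which 18 (0.171%) had a higher change in MZ than in het embryos and 45 (0.426%) a lower one. At an unadjusted p under 0.05 there were 681 and 813. Without MZKO morula 1 and het morula 1 the count was 590, 321 higher (3.04%) and 269 lower (2.55%), and it included all 63. Leaving out het morula 1 alone gave 327 calls and MZKO morula 1 alone 132. Leaving out one of MZ_KO blastocysts 2, 6 and 7, het blastocysts 3, 5 and 6 or het morulae 5 and 7 gave 24, 32, 29, 33, 32, 38, 30 and 25 calls in that order. In 49 of the 63 genes the MZ and the het change had opposite signs, 15 of the 18 and 34 of the 45. Of the 45 genes called lower, the difference between MZ and het embryos was at least 2 times as large in blastocysts as in morulae for 19, at least 2 times as large in morulae for 12, and of like size with opposite signs for 14. Of the 18 called higher, these counts were 6, 3 and 9. This split was made after the values were seen. The 63 genes were chosen by their difference, which favours opposite signs between genotypes and between stages. The counts of opposite signs are therefore partly set in advance, and their share over all genes is not given here.

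**Figure D4:**
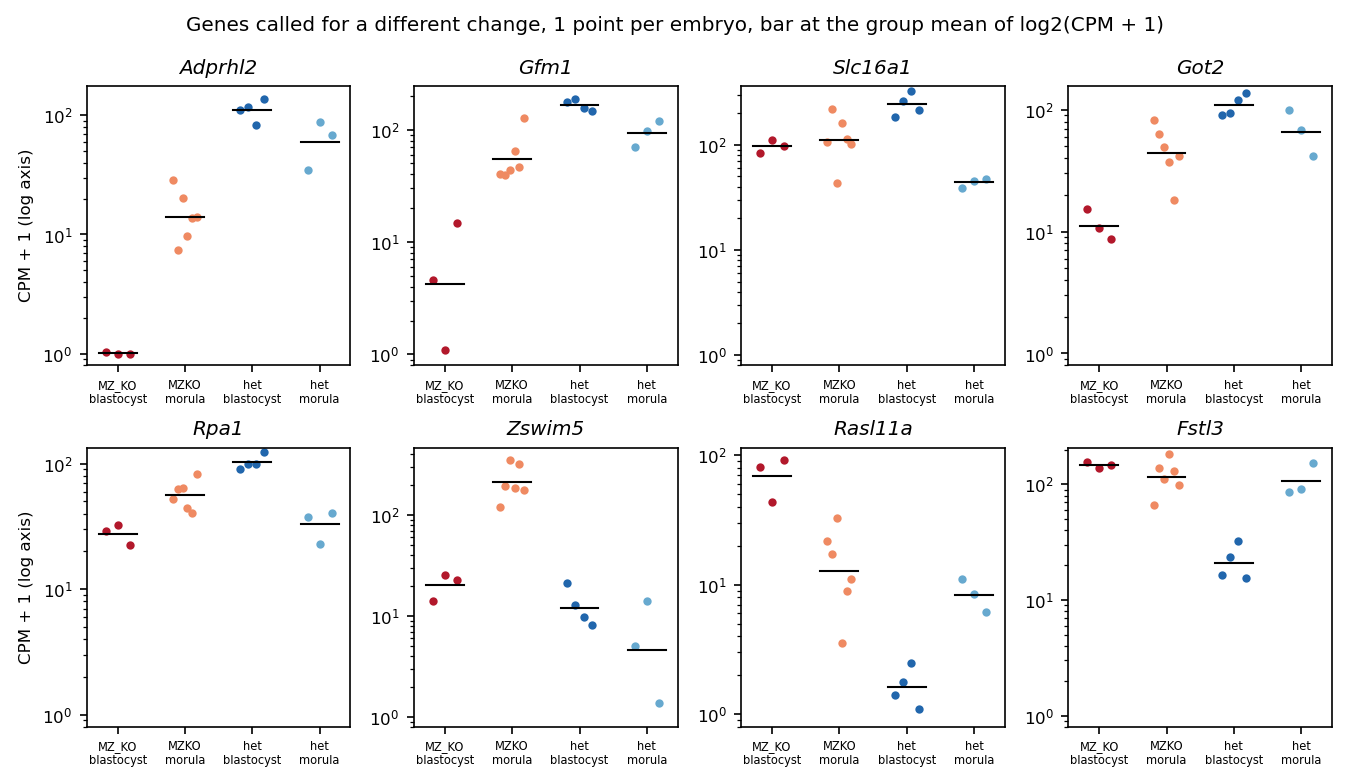
CPM + 1 (log axis) of 8 genes called for a different change, 1 point for each embryo and a bar at the group mean of log2(CPM + 1), for MZ_KO blastocysts, MZKO morulae, het blastocysts and het morulae. Adprhl2, Gfm1 and Got2 are lowest in MZ_KO blastocysts, Zswim5 is highest in MZKO morulae, and Rasl11a and Fstl3 are lowest in het blastocysts.

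The promoters shown were taken from the 12 genes with the most negative called difference and a group mean of at least 50 CPM. The 4 of these with the largest het rise and an entry in the promoter table were used. For Zswim5 the blastocyst groups overlapped and the difference lay in the morulae, as described below. The sequences are the 250 bases before the start in RefSeq's GRCm38.p6 table, given on the gene's strand. Capitals mark a match to the CTCF core consensus, searched on both strands. Alpl has another start in the table, which is not shown. Alpl lies on the minus strand (chr4:137796385-137796634), as do Tubb5 (chr17:35838302-35838551) and Ext2 (chr2:93822569-93822818), and Zswim5 lies on the plus strand (chr4:116877152-116877401).
Alpl: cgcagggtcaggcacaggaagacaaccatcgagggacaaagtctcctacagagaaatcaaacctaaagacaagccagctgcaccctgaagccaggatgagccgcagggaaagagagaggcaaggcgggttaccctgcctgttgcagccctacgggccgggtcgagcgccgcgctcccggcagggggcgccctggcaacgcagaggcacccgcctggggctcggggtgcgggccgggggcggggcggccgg
Tubb5: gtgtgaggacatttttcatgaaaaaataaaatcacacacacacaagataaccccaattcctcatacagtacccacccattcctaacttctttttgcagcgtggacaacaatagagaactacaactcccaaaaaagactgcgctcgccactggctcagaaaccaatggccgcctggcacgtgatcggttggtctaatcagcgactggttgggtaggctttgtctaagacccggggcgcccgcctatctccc
Ext2: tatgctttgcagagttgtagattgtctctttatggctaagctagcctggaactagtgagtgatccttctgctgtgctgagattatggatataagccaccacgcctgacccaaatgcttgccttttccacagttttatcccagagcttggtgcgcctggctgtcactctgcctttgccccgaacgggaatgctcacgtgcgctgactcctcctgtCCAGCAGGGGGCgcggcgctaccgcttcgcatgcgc
Zswim5: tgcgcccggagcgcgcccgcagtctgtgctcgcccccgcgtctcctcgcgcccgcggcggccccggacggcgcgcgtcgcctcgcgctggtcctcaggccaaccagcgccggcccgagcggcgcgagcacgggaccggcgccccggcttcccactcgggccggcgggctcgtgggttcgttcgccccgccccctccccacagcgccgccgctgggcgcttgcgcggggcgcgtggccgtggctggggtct

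Ext2 held 1 match to the CTCF core consensus, and the promoters of Alpl, Tubb5 and Zswim5 held 0, while 0.508% of 32851 promoter windows of this length held one. The shorter word CCCTC, from which the protein takes its name, occurred on either strand 1 time before the start of Alpl shown (3 times before its other start) and 1 time before Zswim5 and 0 times before Tubb5 and Ext2, and 60.5% of all windows held it. These are matches of letters and not binding sites measured here.

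Several genes were lower in every MZ_KO blastocyst than in any other embryo. Adprhl2, the hydrolase that takes ADP-ribose off serine after DNA damage signalling (chr4:126316047-126321703, GRCm38), had 0.0417, 0 and 0 CPM in MZ_KO blastocysts and 6.34, 12.8 and 27.7 CPM as the lowest, median and highest value in MZKO morulae. Het embryos had 110, 115, 81.6 and 136 CPM as blastocysts and 33.8, 86.6 and 67.3 CPM as morulae for Adprhl2. MZ_KO blastocysts were below every other embryo and MZKO morulae below every het morula. The change was -3.80 in MZ and 0.89 in het embryos, a difference of -4.69 ± 0.66 (SE, adjusted p = 0.00147). Within a table, MZ minus het was -6.76 ± 0.48 in blastocysts and -2.07 ± 0.45 in morulae.

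Gfm1, the elongation factor of the mitochondrial ribosome (chr3:67430096-67476529), had 3.62, 0.0918 and 13.7 CPM in MZ_KO blastocysts and 38.3 to 126 CPM in MZKO morulae, against 145 to 188 CPM in het blastocysts and 69.3 to 119 CPM in het morulae. MZKO and het morulae overlapped, and the blastocyst groups did not. Its change differed by -4.53 ± 0.80 (SE, adjusted p = 0.0123). Ext2, a polymerase of heparan sulfate, had 0, 0 and 1.58 CPM in MZ_KO blastocysts and 2.97 to 18.3 CPM in MZKO morulae, against 55.2 to 65.1 CPM in het blastocysts and 12.4 to 19.4 CPM in het morulae (difference -4.61 ± 0.82 SE, adjusted p = 0.0123). Got2, the mitochondrial aspartate aminotransferase of the malate-aspartate shuttle, had 14.3, 9.64 and 7.63 CPM in MZ_KO blastocysts and 17.3 to 81.8 CPM in MZKO morulae, against 89.4 to 135 CPM in het blastocysts and 40.6 to 99.2 CPM in het morulae. The Got2 difference of -2.71 ± 0.59 (SE) was near the threshold (adjusted p = 0.041), and the call was lost when any of 12 embryos was left out (adjusted p from 0.0547 to 0.139), the exceptions being MZKO morulae 1, 6 and 8 and het morula 1.

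Other genes rose in het embryos and stayed at the morula level in MZ embryos. Alpl, a phosphatase of the cell surface, had 37.8, 55.2 and 26.5 CPM in MZ_KO blastocysts and 8.84 to 105 CPM in MZKO morulae, against 310 to 569 CPM in het blastocysts and 21.4 to 48.9 CPM in het morulae. The difference for Alpl was -3.65 ± 0.80 (SE, adjusted p = 0.0433), and only leaving out MZKO morulae 1, 3, 6 or 8 or het morula 1 kept the call (0.0587 to 0.109 otherwise). Slc16a1, the lactate and pyruvate carrier MCT1, had 83.3, 109 and 95.5 CPM in MZ_KO blastocysts and 42.5 to 219 CPM in MZKO morulae, against 184 to 325 CPM in het blastocysts and 38.2, 44.6 and 46.7 CPM in het morulae. The Slc16a1 difference was -2.66 ± 0.52 (SE, adjusted p = 0.0221), and leaving out het morula 5 or 7, MZ_KO blastocyst 2 or 7 or het blastocyst 5 or 6 brought the adjusted p to 0.0515 to 0.0611. Tubb5, a beta-tubulin, had 57.6 to 119 CPM in MZ_KO blastocysts and 45.7 to 213 CPM in MZKO morulae, against 298 to 512 CPM in het blastocysts and 41.2 to 103 CPM in het morulae (adjusted p = 0.0298). Leaving out MZKO morula 2 or 6, het morula 5 or 7, MZ_KO blastocyst 2, 6 or 7 or het blastocyst 3, 5 or 8 ended the Tubb5 call (0.052 to 0.126).

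Of 47 tested genes of DNA replication and entry into S phase, 2 were called lower and 0 higher, against 0.426% and 0.171% of all genes, and 3 were called lower and 3 higher without the 2 morulae, against 2.55% and 3.04%. The list had 1 rise and 2 falls in MZ embryos and 3 rises and 0 falls in het embryos. Among all genes 6.69% rose and 5.48% fell in MZ embryos and 6.72% and 3.19% in het embryos. Without the 2 morulae the list had 1 and 2 in MZ and 2 and 0 in het embryos. All genes then had 8.24% and 5.67% in MZ and 10.3% and 4.01% in het embryos. The median change of the list was 0.08 in MZ and 0.51 in het embryos. Rpa1, the large subunit of the protein that covers single-stranded DNA, had 28.2, 31.2 and 21.6 CPM in MZ_KO blastocysts and 39.5 to 81.1 CPM in MZKO morulae, against 89.04 to 123 CPM in het blastocysts and 22.1 to 39.7 CPM in het morulae. MZ embryos were lower than het embryos at the blastocyst stage, and 5 of 6 MZKO morulae were higher than all het morulae (difference -2.66 ± 0.42 SE, adjusted p = 0.00586). Mcm3, of the replicative helicase, had 89.8 to 101 CPM in MZ_KO blastocysts and 120 to 225 CPM in MZKO morulae, against 198 to 265 CPM in het blastocysts and 94.0 to 152 CPM in het morulae (difference -1.60 ± 0.33 SE, adjusted p = 0.0259). Its call was lost without het morula 7, any MZ_KO blastocyst or het blastocyst 3, 5 or 8 (0.0514 to 0.0801). Ccnd1 (cyclin D1) changed by -3.05 in MZ and -0.95 in het embryos, Pole, the leading strand polymerase, by -2.54 and -0.45, and Ccne1 (cyclin E1) by 2.28 and -0.17. Skp2, the F-box protein that marks CDK inhibitors for destruction, had 6.42 to 10.1 CPM in MZ_KO blastocysts and 58.6 to 166 CPM in MZKO morulae, against 18.8 to 43.7 CPM in het blastocysts and 45.7 to 69.1 CPM in het morulae (adjusted p = 0.0178, and 0.0549 without MZ_KO blastocyst 2).

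For another set the difference lay in the morulae. Zswim5, a zinc finger gene, had 13.04, 24.5 and 21.9 CPM in MZ_KO blastocysts and 119, 188 and 352 CPM as the lowest, median and highest value in MZKO morulae, against 7.08 to 20.4 CPM in het blastocysts and 4.0, 12.98 and 0.39 CPM in het morulae. Blastocysts overlapped and morulae did not (difference -4.78 ± 0.80 SE, adjusted p = 0.00984). Impact, which restrains the stress kinase GCN2, had 4.24 to 11.9 CPM in MZ_KO blastocysts and 63.3 to 153 CPM in MZKO morulae, against 9.26 to 12.9 CPM in het blastocysts and 5.62 to 19.4 CPM in het morulae (difference -3.39 ± 0.61 SE, adjusted p = 0.0138). The mitochondrially encoded mt-Nd3, a subunit of complex I (chrM:9459-9806), had 68.3, 102 and 121 CPM in MZ_KO blastocysts and 113 to 308 CPM in MZKO morulae, against 72.5 to 107 CPM in het blastocysts and 11.2, 9.68 and 13.1 CPM in het morulae. The 3 het morulae stood apart from all other embryos, and the difference of -3.92 ± 0.45 (SE) had an adjusted p of 0.000183.

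The remaining named genes called lower were Erlin1, a protein of ER membranes, Prkcd (protein kinase C delta) and Tex261, with differences of -3.53, -3.38 and -2.94. For Tex261, MZ_KO blastocysts had 4.25 to 8.74 CPM and MZKO morulae 16.7 to 54.4 CPM, against 56.5 to 76.4 CPM in het blastocysts and 33.1 to 36.8 CPM in het morulae (adjusted p = 0.0123). The Erlin1 call (adjusted p = 0.0241) was lost without het morula 5 or 7, MZ_KO blastocyst 7 or het blastocyst 5 or 6 (0.055 to 0.0981), and the Prkcd call (0.0232) without het morula 5 or 7 or any MZ_KO blastocyst (0.0514 to 0.0971).

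Among genes with a higher change in MZ embryos, Rasl11a, a small GTPase-like gene, had 80.0, 42.5 and 90.5 CPM in MZ_KO blastocysts and 2.58 to 31.4 CPM in MZKO morulae, against 0.106 to 1.49 CPM in het blastocysts and 5.12 to 10 CPM in het morulae. MZ embryos rose by 2.43 while het embryos fell by 2.35 on the log2 scale (difference 4.78 ± 0.91 SE, adjusted p = 0.0191, lost without het morula 5, MZ_KO blastocyst 2 or MZ_KO blastocyst 7 with 0.0502, 0.0611 and 0.0726). Fstl3, a secreted binder of activin, had 155, 138 and 148 CPM in MZ_KO blastocysts and 65.0 to 183 CPM in MZKO morulae, against 14.6 to 31.3 CPM in het blastocysts and 85.2 to 153 CPM in het morulae. Its change was 0.35 in MZ and -2.34 in het embryos (difference 2.69 ± 0.46 SE, adjusted p = 0.0115). Vps51, of a tethering complex that returns vesicles to the Golgi, had 135 to 151 CPM in MZ_KO blastocysts and 27.8 to 64.1 CPM in MZKO morulae, against 50.7 to 74.1 CPM in het blastocysts and 69.9 to 80.5 CPM in het morulae (adjusted p = 0.0123). For Palld (palladin, an actin binder) the difference was 3.496, for Nr6a1 (the germ cell nuclear factor) 2.52, for Fdx1 (a mitochondrial ferredoxin) 2.24 and for Gemin7 (of the SMN complex) 1.98. Tmem159, Sfn (14-3-3 sigma), Crip2, Commd2 and Selenow differed by 1.48 (Selenow) to 1.86 (Tmem159). Each of the 9 genes from Palld to Selenow lost its call when 1 of at least 5 embryos was left out.

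**Figure D5:**
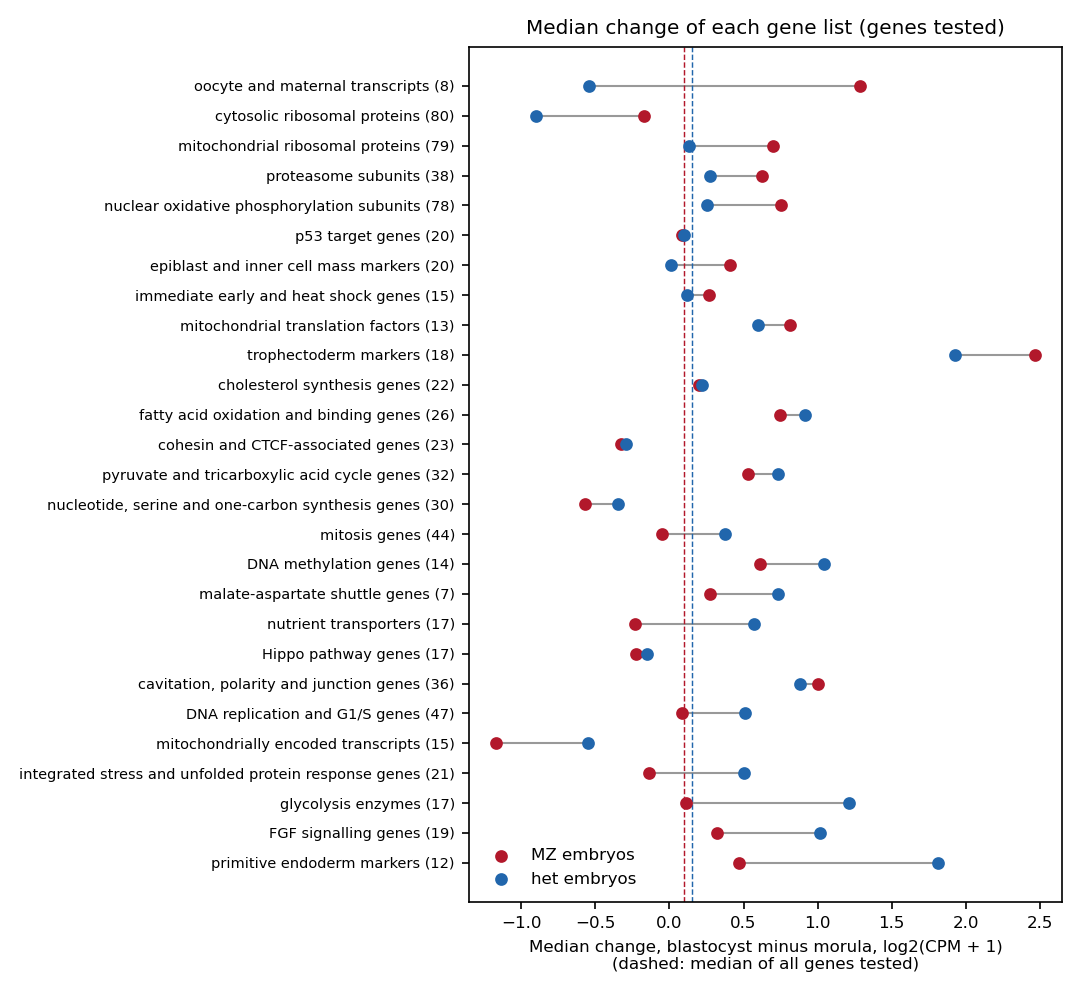
Median change from morula to blastocyst, as log2(CPM + 1), of the tested genes of each list in MZ embryos and in het embryos, with the number of tested genes in brackets, ordered by the median difference. Dashed lines mark the medians of all genes tested, 0.10 in MZ and 0.15 in het embryos.

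Ribosomal protein transcripts were more abundant in every MZ_KO blastocyst than in any het blastocyst. The 80 cytosolic ribosomal protein genes summed to 42850, 38040 and 35900 CPM in MZ_KO blastocysts and 30290, 46490 and 55590 CPM as the lowest, median and highest value in MZKO morulae. In het embryos they summed to 27700, 28600, 25950 and 33830 CPM in blastocysts and 35670, 60200 and 72380 CPM in morulae, the lowest in each morula group being embryo 1. The median change was -0.17 in MZ and -0.90 in het embryos. By the fold rule used for the other lists 0 rose and 0 fell in either genotype, with or without the 2 morulae. A 2-fold rule without overlap was counted for every list and is given here for this list only. By this 2-fold rule 0 rose and 1 fell in MZ embryos, and 0 rose and 28 fell in het embryos. MZKO morula 1 (30290 CPM summed) lay below every MZ_KO blastocyst, which limits falls without overlap. Het morula 1 (35670 CPM) lay above every het blastocyst. The 2-fold count was not repeated without the 2 morulae. Of all genes 10.8% (MZ) and 8.77% (het) fell by the 2-fold rule. The difference was above 0 for 79 of the 80, with a median of 0.74 against -0.04 over all genes, 0.48 to 1.04 over all alternatives tried, and 0.71 and 0.72 under the alternative scalings. No ribosomal gene passed the test with all embryos (18 genes, 0.171%, did so in this direction overall), and 38 of 80 did without the 2 morulae, where 321 of all 10556 did.

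Subunits of the respiratory chain coded in the nucleus had a median change of 0.76 in MZ and 0.25 in het embryos over 78 genes, with 0 calls (7 higher and 0 lower without the 2 morulae, against 3.04% and 2.55% of all genes). They summed to 20060 to 22280 CPM in MZ_KO blastocysts and 10770 to 15650 CPM in MZKO morulae, against 18230 to 23450 CPM in het blastocysts and 13120 to 18220 CPM in het morulae. The blastocyst groups overlapped. Genes of the mitochondrial ribosome had median changes of 0.70 in MZ and 0.13 in het embryos over 79 genes, and summed to 9568 to 11700 CPM in MZ_KO blastocysts and 4647 to 8204 CPM in MZKO morulae, against 7448 to 9041 CPM in het blastocysts and 5351 to 10050 CPM in het morulae. Mrps30 and Mrps12 of the small and Mrpl36 of the large subunit rose at least 4-fold without overlap in MZ embryos, by 3.86, 2.16 and 2.43, and 1 of the 79 genes rose in het embryos, with the same counts without the 2 morulae. By this rule 6.69% of all genes rose in MZ and 6.72% in het embryos, and 8.24% and 10.3% without the 2 morulae. No gene of this list was called with all embryos, and 6 were called higher and 0 lower without the 2 morulae. Proteasome subunits had medians of 0.62 in MZ and 0.27 in het embryos over 38 genes, with 0 calls (6 higher and 0 lower without the 2 morulae), and all MZ_KO blastocysts (22240 to 24890 CPM summed) exceeded all het blastocysts (15420 to 19410 CPM).

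The 15 mitochondrially encoded transcripts had lower levels in MZ_KO blastocysts than in MZKO morulae. They summed to 11630, 8855 and 12690 CPM in MZ_KO blastocysts and 19200 to 32490 CPM in MZKO morulae, against 12020 to 16560 CPM in het blastocysts and 25120, 15130 and 16520 CPM in het morulae. All 15 had a change below 0 in MZ embryos (10 of 15 in het embryos), the median change was -1.17 in MZ and -0.55 in het embryos, and all 15 differences were below 0, with mt-Nd3 the one called (3 called lower without the 2 morulae). These transcripts lie on 1 molecule and are not independent of each other. Of all genes 0.426% were called lower with all embryos and 2.55% without the 2 morulae.

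Glycolysis enzymes had a median change of 0.11 in MZ and 1.21 in het embryos over 17 tested genes. In MZ embryos 1 rose and 2 fell at least 4-fold without overlap, in het embryos 3 rose and 2 fell, against 6.69%, 5.48%, 6.72% and 3.19% of all genes. Without the 2 morulae these counts were 3, 2, 7 and 2, against 8.24%, 5.67%, 10.3% and 4.01% of all genes. None was called with all embryos, and 5 were called lower and 0 higher without the 2 morulae, against 2.55% and 3.04% of all genes. Hk2, the hexokinase that traps glucose, had 151, 122 and 134 CPM in MZ_KO blastocysts and 18.7 to 76.1 CPM in MZKO morulae, against 110 to 264 CPM in het blastocysts and 16.1 to 33.3 CPM in het morulae, changes of 2.22 and 2.71. Hk1, another hexokinase, changed by -3.89 in MZ and -5.44 in het embryos. Ldha, the lactate dehydrogenase subunit that favours lactate, had 7.21, 4.50 and 18.5 CPM in MZ_KO blastocysts and 40.1 to 69.9 CPM in MZKO morulae other than morula 1 (296 CPM), against 31.2 to 110 CPM in het blastocysts and 375, 52.7 and 10.2 CPM in het morulae. The Ldha blastocyst groups did not overlap, and the difference in change was -2.72 ± 1.17 (SE, adjusted p = 0.293, and 0.0298 without het morula 1). Ldhb, the other subunit, had 2.76 to 12.7 CPM in MZ_KO blastocysts and 7.88 to 222 CPM in MZKO morulae, against 0 to 34.2 CPM in het blastocysts and 16.1 to 144 CPM in het morulae.

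Of the carriers, Slc2a3 (the glucose carrier GLUT3) had 242, 308 and 360 CPM in MZ_KO blastocysts and 52.1 to 207 CPM in MZKO morulae, against 378 to 607 CPM in het blastocysts and 125 to 193 CPM in het morulae (difference in change -0.22 ± 0.55 SE, adjusted p = 0.889). Slc2a1 (GLUT1) had 9.79, 10.4 and 19.5 CPM in MZ_KO blastocysts and 1.02 to 159 CPM in MZKO morulae, against 26.7 to 104 CPM in het blastocysts and 5.43 to 36.8 CPM in het morulae (adjusted p = 0.421). Slc38a4, an amino acid carrier, rose by 4.82 in MZ and 2.41 in het embryos, and Slc6a6, the taurine carrier, changed by -3.02 and -2.17. Of 17 tested carriers 1, Slc16a1, was called, with and without the 2 morulae, and 1 rose and 1 fell in MZ embryos and 2 rose and 2 fell in het embryos (1 and 1, and 2 and 1, without them). Of all genes 6.69% rose and 5.48% fell in MZ embryos and 6.72% and 3.19% in het embryos. Without the 2 morulae these shares were 8.24% and 5.67% in MZ and 10.3% and 4.01% in het embryos. With all embryos 0.426% of all genes were called lower, and 2.55% without the 2 morulae. Pdk1, which turns off pyruvate dehydrogenase, had at most 2.62 CPM in MZ_KO blastocysts and 0.315 to 23.7 CPM in MZKO morulae, against 0 to 12.8 CPM in het blastocysts and 0 to 18.2 CPM in het morulae. Pyruvate and tricarboxylic acid cycle genes had medians of 0.53 in MZ and 0.73 in het embryos over 32 genes and 0 calls with or without the 2 morulae.

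Fabp5, a fatty acid binding protein, had 7.79, 9.97 and 4.64 CPM in MZ_KO blastocysts and 9.70 to 44.8 CPM in MZKO morulae, against 122 to 192 CPM in het blastocysts and 30.9 to 101 CPM in het morulae. MZ and het blastocysts did not overlap, and the difference in change was -2.93 ± 0.68 (SE, adjusted p = 0.0583). It passed without MZKO morula 3 (0.0316), MZKO morula 8 (0.0285) or het morula 1 (0.0367). Enpep, an aminopeptidase that cleaves angiotensin, had 4.21, 0 and 6.86 CPM in MZ_KO blastocysts and 0 to 21.7 CPM in MZKO morulae, against 128 to 366 CPM in het blastocysts and 0 to 21.6 CPM in het morulae. The het rise of Enpep (5.08) had no counterpart in MZ embryos (0.09), but the difference of -4.99 ± 1.54 (SE) did not pass (adjusted p = 0.151).

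Of 19 tested genes of FGF signalling 2 rose and 2 fell at least 4-fold without overlap in MZ embryos and 5 rose and 1 fell in het embryos, with medians of 0.32 and 1.02 and no call. Over all genes 6.69% rose and 5.48% fell in MZ embryos and 6.72% and 3.19% in het embryos. Without the 2 morulae the FGF counts were 3 and 2 in MZ and 4 and 1 in het embryos, with 1 called higher and 1 lower. All genes then had 8.24% and 5.67% in MZ and 10.3% and 4.01% in het embryos. The shares called were 3.04% higher and 2.55% lower. Fgfr3, an FGF receptor, changed by -4.67 in MZ and -3.37 in het embryos, and Dusp4, a phosphatase that FGF signalling induces, by 2.77 and 3.64. Of 17 tested Hippo pathway genes 1 rose in each genotype, Tead2, a partner of YAP, with 3.01 in MZ and 2.23 in het embryos, and 0 fell. Without the 2 morulae 1 of the 17 genes fell in MZ embryos, against 5.67% of all genes, and 2 were called lower, against 2.55%. The integrated stress and unfolded protein response list had 0 rises and 5 falls in MZ embryos and 1 rise and 4 falls in het embryos over 21 genes, with medians of -0.13 and 0.50. Without the 2 morulae it had 0 rises and 5 falls in MZ embryos, against 8.24% and 5.67% of all genes. In het embryos it then had 6 rises and 4 falls, against 10.3% and 4.01%. Of its 21 genes 5 were then called lower and 0 higher, against 2.55% and 3.04% of all genes. Trib3, a pseudokinase, and Ddit4, an inhibitor of mTOR, both induced by ATF4, changed by -3.35 and -2.57 in MZ embryos and by -2.63 and -3.85 in het embryos. Nupr1, a stress gene, had at most 2.99 CPM in MZ_KO blastocysts and 20.8 to 280 CPM in MZKO morulae, against 9.94 to 62.0 CPM in het blastocysts and 1.28 to 52.9 CPM in het morulae (difference -5.26 ± 1.31 SE, adjusted p = 0.0801, and 0.00643 without the 2 morulae). Of 20 tested p53 targets 1 rose and 0 fell in MZ embryos, namely Phlda3, a p53 target that restrains AKT, by 3.91 (1.52 in het embryos), while 0 rose and 1 fell in het embryos and none was called. With the 2 morulae left out 1 rose and 0 fell in MZ embryos and 1 rose and 1 fell in het embryos. Of the 20 targets 2 were then called higher, against 3.04% of all genes.

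Of the 8 tested oocyte and maternal transcripts 3 rose and 1 fell in MZ embryos and 1 rose and 2 fell in het embryos (3 and 1, and 0 and 1, without the 2 morulae), and 0 were called (1 higher without them). The shares of all genes were 6.69% and 5.48% in MZ and 6.72% and 3.19% in het embryos. Without the 2 morulae they were 8.24% and 5.67%, and 10.3% and 4.01%, and 3.04% of all genes were called higher. Khdc3, of the subcortical maternal complex, had 3397, 2949 and 3241 CPM in MZ_KO blastocysts and 131 to 817 CPM in MZKO morulae, against 1944 to 2314 CPM in het blastocysts and 273, 1046 and 1753 CPM in het morulae (difference 1.89 ± 0.74 SE, adjusted p = 0.249, and 0.0144 without the 2 morulae). Ooep, of the same complex, and Nlrp4f rose by 3.54 and 4.45 in MZ embryos and by 2.196 and 2.32 in het embryos. Of 23 tested cohesin and CTCF-associated genes 1 fell in each genotype, Stag2, a cohesin subunit, by -3.08 in MZ and -2.76 in het embryos, and none was called with or without the 2 morulae. Mitosis genes (44 tested) had 0 calls (1 higher and 2 lower without the 2 morulae) and medians of -0.05 in MZ and 0.37 in het embryos, with Cdc25b, a phosphatase that activates CDK1, changed by -4.13 and -0.13 (adjusted p = 0.0843). Nucleotide, serine and one-carbon genes (30 tested) had medians of -0.57 in MZ and -0.35 in het embryos and 0 calls (2 higher and 1 lower without the 2 morulae), and Impdh2, of guanine nucleotide synthesis, changed by -2.86 and -2.36. The mitosis and nucleotide calls without the 2 morulae stand beside 3.04% higher and 2.55% lower over all genes.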

How the data were processed

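RNA of single embryos was made into libraries with a SMART-Seq kit, per the labels' protocols. The submitters' processing notes name cutadapt 1.14, Bowtie2 2.2.9, RSEM 1.3.1 and GRCm38. The 2 deposited tables hold log2 CPM with an offset of 0.5 reads, each scaled on its own, as the deposited values show: 100% of values came back as whole reads (tolerance 0.01). CPM was taken as 2 to the deposited log2 value less the offset of each embryo. The design was written before the unit was known and left the scale open. 3 rows of the blastocyst table name no gene and hold at most 0.0113% of an embryo's reads. Symbols and positions came from GENCODE (GRCm38).

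Rows that reached 10 CPM in 3 or more of the 16 embryos entered a limma fit (version 3.58.1, R 4.3.3) of log2(CPM + 1), with 4 group means, a variance trend, no block and Benjamini-Hochberg adjustment over all genes tested (two-sided, threshold 0.05). The script was tested on simulated data. Ctcf was compared within each table by exact permutation (scipy 1.17.1). Stage changes had no test. Read totals limit low values, and no interval was computed. Named genes were the 12 largest rises and falls, the 12 largest differences in each direction (group mean of at least 50 CPM, clone names and pseudogenes passed over), up to 4 of each list and a set list. Members and lists were chosen with earlier results of these data known. Alternatives changed the pseudocount, filter, scaling, groups, block, variance and embryos. A library repeating one het blastocyst was not analysed here.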

Additional observations from a re-analysis of the deposited data

Results flagged for a closer look

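Of 142 groups of 4 het blastocysts or 6 MZKO morulae in 71 named genes, 10 had 1 embryo far from the others, and chance alone gives about 1 in 20 such groups. The groups of 3, MZ_KO blastocysts and het morulae, were too small for this search. MZKO morula 1 held 4 of them, with 2081 CPM for Ltf, 409 for Anxa1, 541 for Hdc and 296 for Ldha. MZKO morula 2 stood apart for Hk2 (76.1 CPM). Het blastocyst 8 stood apart for Rnf130 (69.9 CPM) and Pdk1 (0 CPM), het blastocyst 6 for Slc25a48 (9.39 CPM) and Crip2 (435 CPM) and het blastocyst 5 for Commd2 (109 CPM).

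The change from morula to blastocyst differed between MZ and het embryos for 63 genes. Among those named, the log2 difference was lower in MZ embryos for Gata4 (-5.33), Zswim5 (-4.78), Adprhl2 (-4.69), Ext2 (-4.61), Gfm1 (-4.53), mt-Nd3 (-3.92), Alpl (-3.65), Erlin1 (-3.53), Impact (-3.39), Prkcd (-3.38), Tex261 (-2.94), Tubb5 (-2.81), Skp2 (-2.78), Got2 (-2.71), Slc16a1 (-2.66), Rpa1 (-2.66) and Mcm3 (-1.60). It was higher for Rasl11a (4.78), Palld (3.5), Fstl3 (2.69), Nr6a1 (2.52), Fdx1 (2.24), Vps51 (2.12), Gemin7 (1.98), Tmem159 (1.86), Sfn (1.83), Crip2 (1.67), Commd2 (1.62) and Selenow (1.48).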

How the results depend on the processing

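The count of 63 genes with a different change was 134 with all 7 groups in the fit, 121 with the variance estimated within each stage, 95 with CPM over the genes in both tables and 32 with WT_flfl in place of het blastocysts. Leaving out 1 embryo gave 24 to 327. Without MZKO morula 1 and het morula 1, an alternative chosen after seeing the data, it was 590, of which 54.4% were higher in MZ embryos, against 28.6% with all embryos. Leaving out het blastocyst 6 as well gave 305, with 61 of the 63 among them. Without het morula 1 alone 48.0% were higher, and with median-ratio scaling, which moved the median MZ change by -0.106, 31.1%. With the replicate number as a block 5 genes were called, 4 of them among the 63. Deviations from the group means correlated by -0.21 to 0.72 (median -0.02) between same-numbered embryos of different groups, with 1 of 9 pairs over 0.1. That pair was MZKO morula 1 and het morula 1. Between embryos with other numbers the range was -0.55 to 0.54 (median 0.02), with 18 of 84 pairs over 0.1. So few same-numbered pairs cannot decide whether the numbers pair the embryos.

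The 706 genes higher in MZ_KO blastocysts became 1598 at 2-fold, 271 at 8-fold and 411 with a pseudocount of 5 CPM, and 716 to 870 without 1 embryo. The 578 lower genes became 1142, 250 and 300 under the same settings, and 595 to 711 without 1 embryo. Over 50 named genes and 29 alternatives, 214 values lost a call, 23 gained one and 0 changed sign past the threshold. The cause of these shifts was not tested. Groups of 3 to 6 embryos and low counts limit what the test can show.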
